A study of Mus musculus with 10 samples.

Results

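The genes described here are 8 parts of the canonical Wnt and beta-catenin pathway, followed through m6A profiles of mouse embryonic stem cells with and without Mettl3. They were chosen by name for their place in the pathway and are Ctnnb1, Apc, Axin1, Axin2, Gsk3b, Lrp6, Fzd3 and Fzd7. The deposited files list 30419 genes, and all 8 of these were among the 11211 genes whose input coverage was high enough to test. RNA of the J-1 line was fragmented, part of it was precipitated with an antibody against m6A (the IP), and the rest was kept as input. The libraries fall into 5 pairs of IP and input: 1 pair of J-1 cells whose genotype is not labelled (called the first pair below), 2 pairs labelled Mettl3 WT and 2 pairs labelled Mettl3 KO. No other allele or agent is named for any group, and the sources used here do not give how the KO line was made, whether it is 1 clone or which part of Mettl3 it lacks. The labels' growth text mentions feeder-free culture and also differentiation without LIF, a cytokine that holds these cells undifferentiated, but ties neither to a library. The labels do not say either that the replicates were separate cultures, and p-values then measure only how these libraries differ among themselves, which may be technical.

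In this pathway a Wnt ligand binds a Frizzled receptor (here Fzd3 and Fzd7) and the coreceptor Lrp6. Without ligand, a destruction complex built on the scaffolds Axin1, Axin2 and Apc lets the kinase Gsk3b mark beta-catenin, the product of Ctnnb1, for degradation; with ligand, beta-catenin builds up and acts with TCF factors in the nucleus. Axin2 is itself a target of the pathway, and in mouse embryonic stem cells the pathway is known for its part in self-renewal. N6-methyladenosine (m6A) is a base modification of mRNA that the methyltransferase Mettl3 places with its partners, mostly in long exons and around the stop codon.

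The files give coverage for windows numbered along each exon, and no coordinates. All values called coverage are on the authors' scale, in which every library carries a factor of its own whose size is not stated. The longest exon had the last number in 79.4% of 6842 genes on the plus strand and the first number in 83.3% of 6821 genes on the minus strand, so numbers run along the chromosome and not along the transcript. Relative to the first pair, depth was 43.8% and 45.7% in the WT inputs, 51.6% and 28.4% in the KO inputs, 15.9% and 7.12% in the WT IPs and 6.44% and 6.06% in the KO IPs. Absolute read numbers were not derived.

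The cell type was checked with 25 marker genes. The summed input coverage of 6 pluripotency markers was 1779 in the first input. It was 2321 and 2375 in the WT inputs and 1858 and 1735 in the KO inputs. Dppa5a was the largest part, at 836 in the first input, 1525 and 1539 in WT and 1121 and 1029 in KO. Pou5f1 had 267 in the first input, 246 and 260 in WT and 252 and 248 in KO. Of the 6, 2 (Nanog and Dppa5a) fell in KO while none rose. Over all 11211 genes tested, 13.6% fell and 13% rose. The sums of 6 fibroblast markers lay between 3.51 and 10.7, with Col1a1, Col1a2, Col3a1 and Postn at 0.656 or less in every input. Thy1, the largest of the 6, had 7.85 in the first input, 2.75 and 2.43 in WT and 2.22 and 2.07 in KO. Twist1 was higher in KO, and the lower Thy1 did not pass (adjusted p 0.109 by limma). The 4 neural markers summed to 8.12 in the first input, of which Nes made 5.42. Their sums were 2.30 and 1.87 in WT against 3.87 and 3.22 in KO, where Nes rose and Sox1 fell. The 5 primitive endoderm and 4 mesoderm markers summed to 4.05 or less in every input. In bulk RNA, fewer cells of a type and less RNA per cell cannot be told apart. The part of these markers in the values that follow was not tested. Mettl3 itself had input coverage of 4.79 and 4.67 in WT against 3.14 and 3.38 in KO, a difference of -0.43 on the log2(coverage + 1) scale (SE 0.072, adjusted p 0.00259 by limma), and the call was lost with no filter on low genes (0.0508).

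The first question was whether transcript levels of the pathway genes differed between KO and WT. Of the 8 genes 1 passed the test: Fzd7, a Frizzled receptor, rose, and the log2 differences of the other 7, between -0.19 and 0.09, did not pass. Over all 11211 genes tested, 26.6% passed (limma, Benjamini-Hochberg adjusted p under 0.05), 13% upward and 13.6% downward. Coverage is a mean over windows and does not grow with transcript length, so levels can be compared between genes.

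Ctnnb1 was by far the most abundant, with a mean input coverage per gene of 95.6 and 99.0 in WT, 90.2 and 92.0 in KO, while the first input had 133. The KO libraries were both just below the WT libraries, and the difference of -0.09 on the log2 scale did not pass (SE 0.064, adjusted p 0.310). The genes of the destruction complex were far lower. Apc, the large scaffold, had input coverage of 5.20 and 5.35 in WT against 5.72 and 5.67 in KO, with 13.4 in the first input. Axin1, the scaffold that gathers the complex, had 8.12 and 8.04 in WT against 7.67 and 7.19 in KO, with 16.6 in the first input. For Apc both KO values were above both WT values and for Axin1 both were below, by 0.09 and -0.11 on the log2 scale (adjusted p 0.328 and 0.264). Axin2 was the lowest of the complex, with 1.30 and 1.28 in WT, 1.21 and 1.41 in KO, while the first input had 3.79, so the groups overlapped (log2 difference 0.01, SE 0.084, adjusted p 0.945). Gsk3b, the kinase, had 5.10 and 5.37 in WT beside 5.22 and 4.56 in KO, which also overlap (log2 difference -0.08, adjusted p 0.462), and 7.23 in the first input.

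Among the receptors, the groups overlapped for Lrp6, with input coverage of 5.47 and 5.56 in WT against 5.49 and 5.30 in KO (log2 difference -0.03, adjusted p 0.805), beside 8.38 in the first input. Fzd3 was low throughout, at 1.58 and 1.69 in WT, 1.24 and 1.38 in KO, while the first input had 1.74. Both KO values of Fzd3 lay below both WT values, but the log2 difference of -0.19 (SE 0.082) did not pass (adjusted p 0.116). Fzd7 had 10.1 and 10.5 in WT against 13.0 and 12.2 in KO, while the first input had 17.3. The groups did not overlap, and Fzd7 rose by 0.26 on the log2 scale (SE 0.066, adjusted p 0.0186), with a KO mean 1.22 times the WT mean. The call was lost without KO replicate 1 (adjusted p 0.0532) and without WT replicate 1 (0.106), with the gene's median coverage in place of its mean (0.223), and with no filter on low genes (0.0776).

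In WT inputs the order of levels was Ctnnb1 (97.3 ± 2.39, SD, n = 2), Fzd7 (10.3 ± 0.245), Axin1 (8.08 ± 0.056), Lrp6 (5.51 ± 0.065), Apc (5.27 ± 0.105), Gsk3b (5.23 ± 0.192), Fzd3 (1.64 ± 0.073) and Axin2 (1.29 ± 0.012). Only Apc and Gsk3b overlapped among neighbours in that order. In KO inputs the order ran Ctnnb1 (91.1 ± 1.28), Fzd7 (12.6 ± 0.597), Axin1 (7.43 ± 0.342), Apc (5.69 ± 0.029), Lrp6 (5.40 ± 0.136), Gsk3b (4.89 ± 0.472), Fzd3 (1.312 ± 0.099) and Axin2 (1.309 ± 0.141), with Fzd3 and Axin2 overlapping. In centred log2(coverage + 1) over the 5 inputs, the genes nearest to Axin2 among 6601 with a mean coverage of at least 5 were Asna1, Cdc37 and Lrpap1, at Euclidean distances of 0.049, 0.051 and 0.059 (median over all 0.653). The added 1 compresses the low values of Axin2, so this nearness holds on that scale only: its first input was 2.93 times its WT mean, where Asna1 had 143 in the first input against 68.7 and 69.4 in WT.

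**Figure D1:**
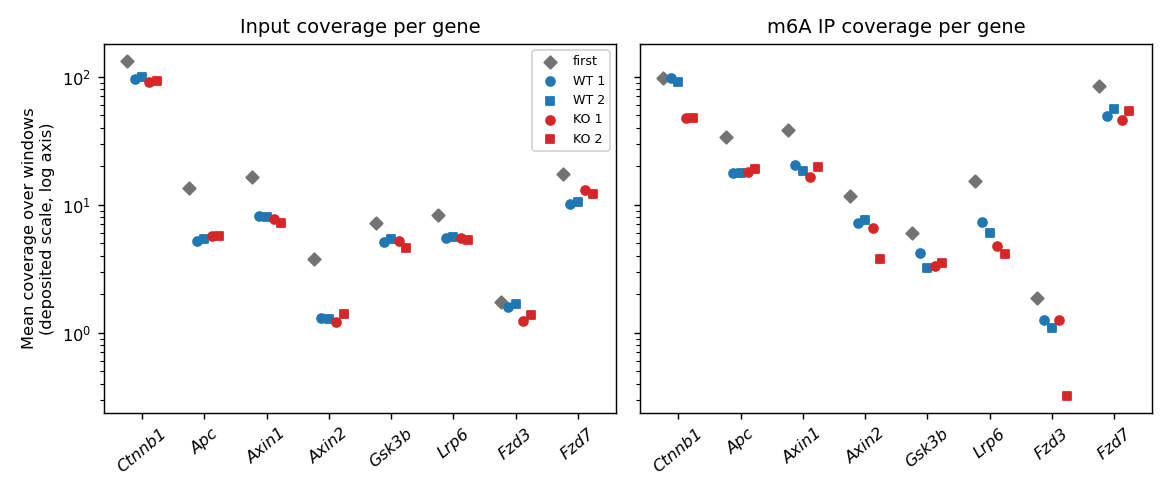
Mean coverage per gene (log axis, authors' scale) of the 8 genes in the 5 inputs (left) and the 5 m6A IPs (right). Grey diamonds are the first pair, blue points WT and red points KO, circles for replicate 1 and squares for replicate 2. The KO mean of input coverage is between 0.802 and 1.22 times the WT mean, while the IP coverage of Ctnnb1 is 98.5 and 90.2 in WT against 47.3 and 47.2 in KO.

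The deposited RPKM table gave another picture, and its KO columns did not follow the input tracks. Across 11211 genes (which are not independent replicates), the columns labelled KO input correlated at 0.958 and 0.973 with the KO IP of the same replicate and at 0.689 and 0.704 with its KO input, whereas the WT columns correlated at 0.992 with their inputs. By those columns 6 of the 8 pathway genes passed the same test, beside 65% of 12245 genes. Fzd7 read 10.2 and 10.6 RPKM in WT against 52.4 and 61.9 in KO, and Apc 5.39 and 5.54 against 20.7 and 22.7. Axin1 turned direction, from 9.11 and 8.95 to 20.4 and 23.2. Ctnnb1 read 114 and 117 against 68.1 and 66.2, where its mean input coverage in KO was 0.937 of that in WT. The columns labelled KO input are therefore given here only beside the tracks, and no direction is drawn from them.

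**Figure D2:**
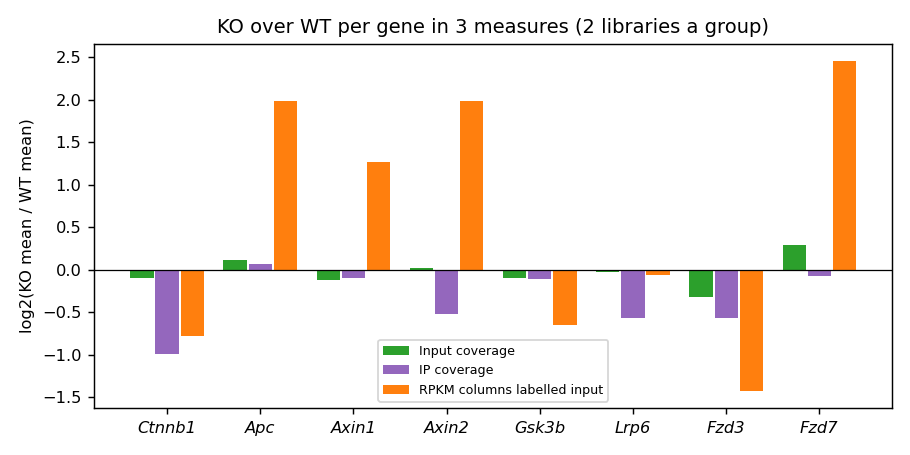
log2 of the KO mean over the WT mean (2 libraries each) for the 8 genes in input coverage (green), IP coverage (purple) and the RPKM columns labelled input (orange), with 0 as no difference. The KO mean of input coverage is 1.22 times the WT mean for Fzd7, 1.08 times for Apc and 0.920 for Axin1, while the RPKM columns put Fzd7 at 5.51 times, Apc at 3.97 times and Axin1 at 2.41 times the WT mean.

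IP coverage of whole genes differed in direction between the 8 genes and was not tested. Ctnnb1 had IP coverage of 98.5 and 90.2 in WT against 47.3 and 47.2 in KO, so the KO mean was 0.501 of the WT mean where that of input was 0.937. Lrp6 had 7.26 and 5.98 in WT beside 4.79 and 4.12 in KO (0.674 of WT, input 0.978). Axin2 had 7.17 and 7.61 in WT against 6.52 and 3.77 in KO. Both KO IPs were below both WT IPs in each of these 3 genes. How many of all genes did so was not derived. Apc went the other way, with 17.6 in both WT IPs and 18.2 and 18.8 in KO. Axin1 (20.4 and 18.4 in WT, 16.4 and 19.7 in KO), Gsk3b (4.17 and 3.21, 3.34 and 3.48), Fzd3 (1.26 and 1.09, 1.26 and 0.318) and Fzd7 (49.7 and 56.0, 46.2 and 53.8) overlapped between the groups.

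The second question was where along these transcripts the antibody enriched RNA, and whether that differed in KO. A region is a run of at least 2 neighbouring windows that all reach a winscore of 2 in the IP of the first pair. The winscore is the authors' log2 ratio of IP to input in a window, each divided by its gene median. In it 1 is added to each coverage and each median, so windows without IP can still score above 0. Regions thus come from a pair on neither side of the KO against WT comparison. All 8 genes held a region, as did 54.6% of 11018 genes, and together they held 23 of the 9963 regions, covering 121 windows. In both WT IPs 20 of the 23 kept a mean winscore of at least 2, and in both KO IPs 15 did. Over all regions these shares were 87.2% and 75.6%.

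Regions were compared by mean winscore and by log2((IP + 1)/(input + 1)), centred on windows outside regions. No region of any gene passed for either measure (limma, 0% of 9963 and 0% of 9475). At an unadjusted p under 0.05 were 8.12% of regions by winscore (809) and 16.7% by IP over input (1582). Among the pathway genes these were 2 of 23 by winscore and 3 of 22 by IP over input, all lower in KO. By IP over input 19 of the 22 were lower in KO with a median difference of -0.53, beside 77.6% and -0.45 over all regions. Both KO values lay below both WT values in 10 of the 22 and above in 1, where all regions gave 46.1% and 7.37%. By winscore 14 of the 23 were lower, with a median of -0.12, beside 53.7% and -0.064 over all regions. The counts for these genes were thus near those of all regions. With 1 KO library left out, many regions passed: 344 by winscore and 728 by IP over input without KO replicate 1 (1 and 2 of them in these genes), and 1221 and 2275 without KO replicate 2 (5 and 3 of them).

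**Figure D3:**
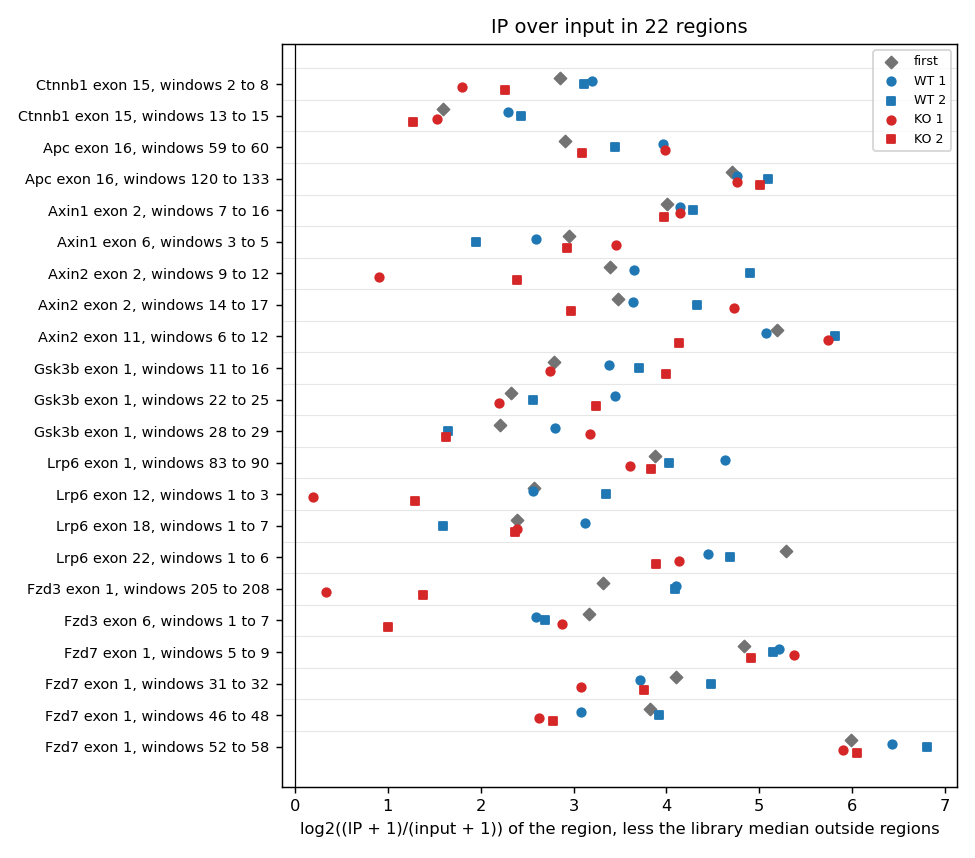
log2((IP + 1)/(input + 1)) of 22 regions in the 8 genes, less each library's median outside regions, for the first pair (grey diamonds), WT (blue) and KO (red), circles for replicate 1 and squares for replicate 2. The 1 further region, in Gsk3b exon 11, had too little input to test. The widest gaps are in Fzd3 exon 1 (4.10 and 4.09 in WT, 0.33 and 1.38 in KO), Axin2 exon 2 and Lrp6 exon 12.

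In Ctnnb1, both regions lay in exon 15, the last-numbered and with 24 windows the longest of its 15 exons. Windows 2 to 8 had IP coverage of 508 in the first IP, 627 and 578 in WT against 220 and 268 in KO, on inputs of 133 and 144 in WT beside 126 and 107 in KO. Both KO IPs were far below both WT IPs, and their mean was 40.5% of the WT mean (244 ± 34.0 against 602 ± 34.0, SD, n = 2). Window 6 was the highest of the gene in all 5 IPs, at 912 in the first, 1562 and 1467 in WT against 567 and 717 in KO. The centred log2 ratio of IP to input was 3.20 and 3.12 in WT against 1.80 and 2.26 in KO (difference -1.13, SE 0.488, unadjusted p 0.0609, adjusted p 0.306). Windows 13 to 15 gave IP coverage of 518 and 546 in WT beside 286 and 241 in KO (difference of log2 ratios -0.97, SE 0.559, adjusted p 0.391). Winscores of the 2 regions differed by -0.61 and -0.27. IP coverage in KO was 0.430 of WT inside regions and 0.727 outside. Regions held 74.5% and 77.8% of the gene's IP coverage in WT and 62.6% and 67.9% in KO, and between 13.1% and 20.7% of its input. The exon as a whole differed by -1.01 (SE 0.463, adjusted p 0.689).

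**Figure D4:**
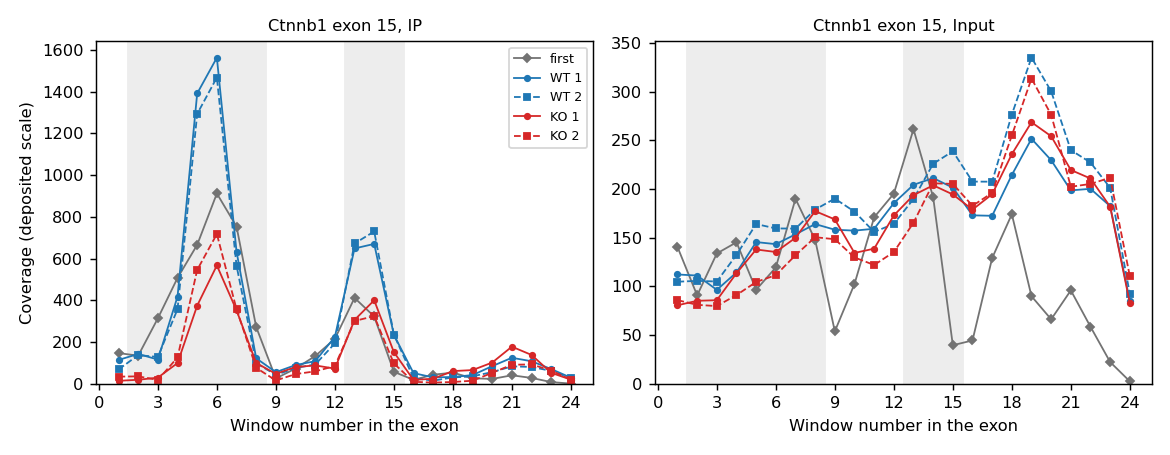
Coverage (authors' scale) over the 24 windows of Ctnnb1 exon 15 in IP (left) and input (right); lines are the first pair (grey), WT (blue) and KO (red), solid or dashed for replicates 1 and 2, and shaded bands are the 2 regions. IP peaks at window 6 in every library, at 1562 and 1467 in WT against 567 and 717 in KO, while input over the first region averages 133 and 144 in WT against 126 and 107 in KO.

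In the scaffold Apc, the regions lay in exon 16, which holds 204 of its 256 windows. Windows 120 to 133 had IP coverage of 358 in the first IP, 146 and 148 in WT against 154 and 159 in KO. KO stood just above WT in IP coverage and overlapped it after division by input, where the log2 ratios were 4.76 and 5.09 in WT beside 4.76 and 5.01 in KO (difference -0.04, SE 0.274, adjusted p 0.940). The winscore there was 3.74 and 4.62 in WT against 5.60 and 5.07 in KO, a difference of 1.15 (SE 0.574, adjusted p 0.611). Windows 59 and 60 had IP coverage of 40.6 and 22.4 in WT against 45.2 and 36.9 in KO (log2 ratio difference -0.17, SE 0.459). By winscore they were higher by 1.04 (adjusted p 0.695), by 0.24 without KO replicate 1 and by 1.84 without KO replicate 2. The number of Apc windows whose winscore reached 2 was 18 in the first IP, 41 and 54 in WT, and 80 and 70 in KO. Of its windows 11.7% and 33.2% were at 0 in the WT IPs and 47.3% and 37.5% in the KO IPs, and the part of this in the winscores was not tested. Windows 104 to 106, picked after their values were seen, held no region, with a winscore of 1.52 in the first IP, but gave IP coverage of 156 and 189 in WT against 230 and 199 in KO beside 57.5 in the first. Exon 16 as a whole differed by -0.10 (SE 0.322).

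Axin1 had its main region in windows 7 to 16 of exon 2 (20 windows). IP coverage there was 192 in the first IP, 105 and 95.4 in WT against 84.3 and 92.6 in KO. KO values were a little below WT, and the log2 ratio of IP to input differed by -0.16 (SE 0.296, adjusted p 0.775). Exon 6 (11 windows) held the 1 region of the 22 with both KO values above both WT values. Its windows 3 to 5 had log2 ratios of 2.60 and 1.95 in WT beside 3.45 and 2.93 in KO, which did not pass the test (difference 0.92, SE 0.514, adjusted p 0.381). By winscore the difference was 1.09 (adjusted p 0.735), but -0.058 without KO replicate 1 and 2.24 without KO replicate 2. IP coverage in that region was 27.6 and 15.1 in WT against 42.2 and 21.8 in KO. The exons 2 and 6 as wholes differed by -0.12 and 0.51, and exon 11, with 18 windows and no region, by -0.49 (SE 0.571).

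Axin2 had 3 regions, on input coverage between 0.623 and 2.60 in the WT and KO pairs. Exon 11 held the highest, in windows 6 to 12, with IP coverage of 93.1 in the first IP, 53.4 and 51.9 in WT against 63.3 and 21.6 in KO. The 2 KO IPs lay on either side of WT (log2 ratio difference -0.50, SE 0.571, adjusted p 0.640). Exon 2 (20 windows) held the other 2 regions, whose difference from each other was not tested. Windows 9 to 12 had IP coverage of 24.4 in the first IP, 14.2 and 27.3 in WT beside 0.518 and 8.81 in KO, so KO was 22.4% of WT (log2 ratio difference -2.63, SE 0.711, unadjusted p 0.0108, adjusted p 0.270). Windows 14 to 17 had 19.3 and 17.8 in WT against 22.5 and 8.59 in KO, which overlap (difference -0.13, SE 0.634). Input over windows 9 to 12 was 1.38 and 1.05 in WT against 0.623 and 2.60 in KO. The winscore of windows 9 to 12 differed by -1.98 with all libraries (adjusted p 0.567) and by -2.27 without KO replicate 2. Exons 2 and 11 as wholes differed by -0.81 and -0.48, and exon 6, with 11 windows and no region, had too little input to test, with IP coverage of 0.248 and 1.39 in WT beside 0 and 1.09 in KO.

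Averaged over the whole gene, Gsk3b had the lowest IP over input of the complex, with IP coverage below input in every pair. That order holds for whole genes on the authors' scale and not for single regions. In exon 1 (33 windows) lay 3 neighbouring regions. Windows 22 to 25 had IP coverage of 45.0 in the first IP, 41.8 and 31.4 in WT against 19.2 and 33.9 in KO. Windows 11 to 16 had 8.25 and 14.6 in WT against 8.15 and 11.5 in KO, and windows 28 and 29 had 34.8 and 16.5 against 39.8 and 10.7. WT and KO overlapped in all 3, and the log2 ratio differences were -0.28, -0.17 and 0.18 (adjusted p 0.801, 0.867 and 0.907). The region in windows 103 to 105 of exon 11 (112 windows) had IP coverage of 3.39 in the first IP, 0.890 and 0.272 in WT and was listed at 0 in both KO IPs. Its input was too low for the test of IP over input, and its winscore differed by -0.12 (SE 0.709, adjusted p 0.979). In KO replicate 2 that winscore was 2.49 with IP and input both at 0, so it came from the gene medians and the added 1. Windows 49 to 51 of that exon, picked after their values were seen, stood at 44.3 in KO replicate 1 and at 2.48 or less in the other 4 IPs. As wholes, exon 1 differed by -0.27 and exon 11 by 0.20.

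Lrp6 carried regions in 4 of its 23 exons. Exon 22 (8 windows) was its strongest, with a winscore of 4.93 in the first IP, and its windows 1 to 6 had IP coverage of 116 in the first IP, 69.6 and 68.8 in WT beside 36.4 and 38.9 in KO. Both KO IPs were near 54.5% of the WT mean, but input was also lower (5.33 and 4.86 in WT, 3.24 and 4.19 in KO), with a log2 ratio difference of -0.55 (SE 0.296, adjusted p 0.364) and a winscore difference of -0.027. Exon 1, the longest with 93 windows, had its region at windows 83 to 90, near the side of exon 2, with IP coverage of 145 in the first IP, 45.3 and 41.0 in WT against 26.6 and 31.3 in KO (log2 ratio difference -0.61, SE 0.355, adjusted p 0.393). Its largest log2 ratio difference was in exon 12 (7 windows), where windows 1 to 3 had IP coverage of 12.2 and 13.6 in WT against 1.66 and 3.77 in KO on inputs between 2.09 and 3.67. KO was 21.0% of WT there, and the log2 ratio differed by -2.22 (SE 0.684, unadjusted p 0.0184, adjusted p 0.270). The winscore differed by -1.56 (adjusted p 0.611). In exon 18 (8 windows), windows 1 to 7 had IP coverage of 18.8 and 5.33 in WT beside 9.72 and 10.7 in KO (difference 0.02, SE 0.669). As wholes, exons 1, 12, 18 and 22 differed by -0.43, -2.11, -0.025 and -0.52.

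Fzd3 held the region with the widest gap of the 8 genes. Its exon 1 has 210 of its 257 windows, and the region at windows 205 to 208, beside exon 2, had IP coverage of 23.7 in the first IP, 16.9 and 19.4 in WT against 0 and 1.55 in KO. The KO mean was 4.28% of the WT mean, on inputs of 1.04 and 1.59 in WT against 0.590 and 0.885 in KO. The winscore was 4.35 and 4.30 in WT beside 0.41 and 1.48 in KO, a difference of -3.38 (SE 0.656, unadjusted p 0.000588, the 6th smallest of 9963, adjusted p 0.509). The log2 ratio of IP to input was 4.10 and 4.09 in WT against 0.33 and 1.38 in KO, a difference of -3.24 (SE 0.572, unadjusted p 0.00147, adjusted p 0.268) and the 41st lowest of 9475 regions. The filter for this measure takes the mean of the 4 inputs, and both KO inputs of the region were under 1. With IP at 0 in KO replicate 1, its log2 ratio came only from the pseudocount, the input and the centring. The p-value and the rank rest on these values. By IP over input, both KO values were below both WT values in 46.1% of all regions, as here. Of the windows of Fzd3, 52.5% and 78.2% were at 0 in the WT IPs and 91.4% and 89.1% in the KO IPs, and the part of this in the result was not tested.

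The other region of Fzd3, windows 1 to 7 of exon 6 (11 windows), had IP coverage of 21.1 in the first IP, 10.6 and 10.1 in WT against 9.81 and 2.09 in KO. Here KO replicate 1 stood near WT and replicate 2 below (log2 ratio difference -0.71, SE 0.747, adjusted p 0.617; winscore difference -1.52, SE 0.679, adjusted p 0.606). Exon 4, with 21 windows and no region, had IP coverage of 2.73 and 2.995 in WT beside 0.755 and 0.319 in KO (difference -1.18, SE 0.551, adjusted p 0.691). Windows 45 to 48 of exon 1, picked after their values were seen, had IP coverage of 0.865 in the first IP, 5.20 and 0.959 in WT against 44.9 and 8.92 in KO. The highest window of the gene was 206 or 207 in the first and WT IPs, and 46 (77.1) and 47 (16.02) in the KO IPs. Exon 1 as a whole differed by 0.060 (SE 0.553), and regions held 43.7% and 53.1% of Fzd3 IP coverage in WT and 21.1% and 25.4% in KO.

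**Figure D5:**
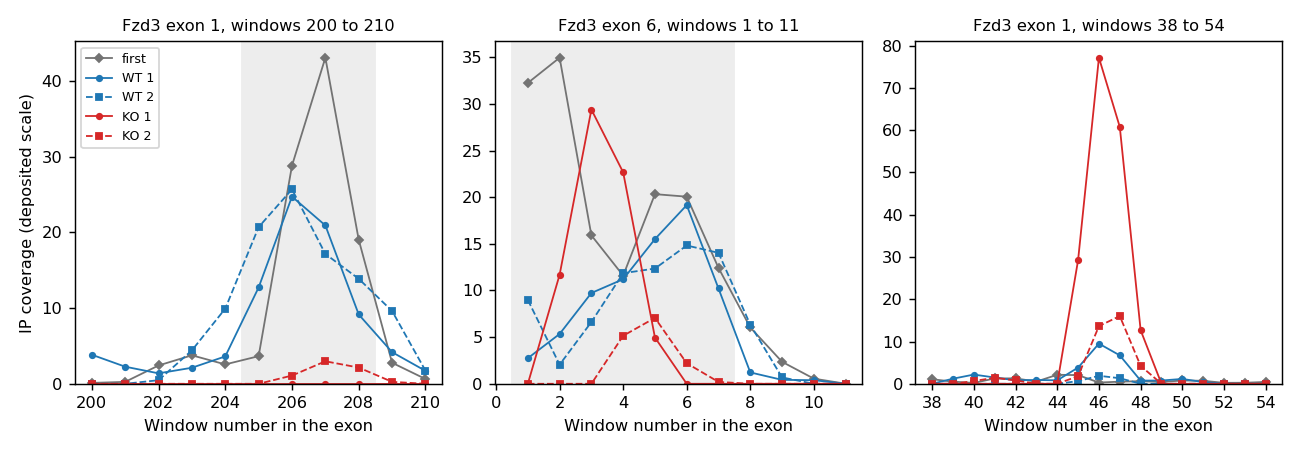
IP coverage (authors' scale) over windows of Fzd3 at the end of exon 1 (left), in exon 6 (middle) and at windows 38 to 54 of exon 1 (right), with the first IP in grey, WT in blue and KO in red, solid or dashed for replicates 1 and 2, and regions shaded. At windows 205 to 208 KO lies at 0 and 1.55 on average against 16.9 and 19.4 in WT, while KO replicate 1 reaches 77.1 at window 46.

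Fzd7, a single exon of 97 windows, held the region with the highest log2 ratio of IP to input of the 8 genes, while by winscore that of Lrp6 exon 22 was higher (4.93 against 3.76 in the first IP). Windows 52 to 58 had IP coverage of 533 in the first IP, 408 and 482 in WT against 350 and 406 in KO, on inputs of 8.26 and 8.35 in WT beside 10.7 and 10.8 in KO. KO stood below WT in IP and above it in input, and the log2 ratio of 6.43 and 6.80 in WT against 5.91 and 6.06 in KO differed by -0.64 (SE 0.264, unadjusted p 0.0534, adjusted p 0.301). Windows 5 to 9 had IP coverage of 90.5 and 63.0 in WT against 80.7 and 87.8 in KO (difference -0.035, SE 0.275). Windows 31 and 32 had 56.5 and 71.8 against 41.0 and 95.3 (difference -0.67, SE 0.444), and windows 46 to 48 had 43.4 and 46.4 against 26.1 and 31.5 (difference -0.80, SE 0.477). The 4 regions held 73.7% and 73.1% of its IP coverage in WT and 67.3% and 68.2% in KO. The exon as a whole differed by -0.41 (SE 0.295, adjusted p 0.766).

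Over exons, the third measure, the 8 genes had 95, of which 79 had enough input and windows to test. None passed, as none did over all genes (limma, 0% of 101250 exons, 7.36% or 7457 at an unadjusted p under 0.05). The smallest adjusted p among these exons was 0.677. At an unadjusted p under 0.05 were 9 of the 79, 7 lower and 2 higher in KO: Lrp6 exons 12, 13, 17 and 22, Ctnnb1 exon 7, Axin1 exon 4 and Gsk3b exon 9 were lower, and Axin1 exon 3 and Lrp6 exon 8 higher. Except for Lrp6 exons 12 and 22, these exons have 2 to 5 windows and no region, and were picked by this p-value. In Axin1 exon 4 and Gsk3b exon 9, IP coverage was at 0 in both KO libraries. Of the 79, 58 were lower in KO with a median difference of -0.38, where 61.2% of all exons were lower with a median of -0.20. By gene the median ran from -0.11 in Apc to -0.58 in Ctnnb1. Averaged over the windows of a gene's regions, IP coverage in KO was 0.309 of WT in Fzd3, 0.430 in Ctnnb1, 0.608 in Lrp6, 0.719 in Axin2, 0.805 in Gsk3b, 0.874 in Fzd7, 0.921 in Axin1 and 1.07 in Apc.

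The rest of the pathway was taken from a list of 117 gene names in 6 roles. Of these names 115 stand in the files (Gpr177 and Fam123b do not), and 63 could be tested for transcript level. The list was drawn up with earlier results of these data known. In KO 5 rose and 11 fell, 16 of 63 beside 26.6% of all genes, and the median difference was -0.005, as it was over all genes. Of 3 genes tested for ligands and their release, Wnt7b rose (input coverage 1.22 to 1.77, WT mean to KO mean). Wls, which carries Wnt proteins to the cell surface, rose too (1.27 to 1.90). Porcn, which attaches the lipid of Wnt proteins, fell (4.12 to 3.005). Of 10 genes listed under receptors and coreceptors (Rspo1 among them), Fzd2 (1.29 to 2.40) and Lgr4, a receptor for R-spondins (8.43 to 10.7), rose. The Frizzled receptors Fzd5 (12.5 to 8.79) and Fzd10 (3.36 to 2.36) fell. Of 7 inhibitor genes, Sfrp1, a secreted antagonist, fell from 22.2 to 14.6 (log2 difference -0.58, adjusted p 0.000487), and Notum, which strips the lipid from Wnt proteins, from 1.46 to 1.05.

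Of 21 genes of the cytoplasmic relay, Csnk1g1, a casein kinase 1 (4.82 to 3.73), and Tnks, a tankyrase that marks Axin for turnover (4.41 to 3.60), fell, and none rose. Of 16 nuclear factors, Ctnnbip1, which blocks the binding of beta-catenin to TCF (6.08 to 4.52), the chromatin remodeller Chd8 (6.87 to 5.20) and the corepressor Tle3 (12.9 to 10.5) fell, and none rose. Of 6 target genes tested, Jun rose (1.17 to 1.60) and Tdgf1 fell (303 to 216, log2 difference -0.49, adjusted p 0.00147). Both agonists and inhibitors of the pathway were among those that fell.

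Of the listed genes, 53 held 100 regions. Of these regions, 76 of the 96 that could be tested for IP over input were lower in KO (median -0.40), near the 77.6% of all regions. By winscore 51 of the 100 were lower (median -0.036), beside 53.7% of all regions. None passed. The 12 regions whose mean winscore reached 4 in the first IP lay in Fzd5, Nr5a2, Ctbp2, Csnk1g1, Znrf3 (2 regions), Chd8, Ep300, Myc, Wnt7b, Crebbp and Lrp5, and all 12 had a lower mean log2 ratio in KO. By winscore Ctbp2 (0.18), Chd8 (0.20), Myc (0.31), Wnt7b (0.58) and Lrp5 (0.057) were higher in KO and the others lower. Log2 ratio differences ran from -0.067 in Wnt7b to -0.86 in Crebbp (SE 0.399, adjusted p 0.329), a coactivator of beta-catenin. In Fzd5 the IP coverage of the region was 177 and 192 in WT beside 80.3 and 101 in KO, on an input that was also lower (log2 ratio difference -0.50, SE 0.295). In Myc it was 318 and 380 in WT against 272 and 324 in KO, which overlap. The log2 ratios of Myc did not, at 6.52 and 6.49 in WT against 6.04 and 6.33 in KO (difference -0.32, SE 0.252).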

How the data were processed

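RNA of 10 libraries (1 first pair, 2 WT and 2 KO pairs of IP and input) was placed in groups by the labels. Reads were aligned with TopHat 1.1.3 to mm9, per the submitters' processing notes. Coverage is a signal per exon window, scaled by the authors, in the deposited window files, with its gene median and a log2 winscore, per the file headers. The winscore was recomputed from the other columns in all 1510223 windows. A deposited table gives RPKM, whose denominator is not stated. Library column names in 4 window files match no label, so IP and input were told apart by the winscore formula.

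Here coverage was averaged per gene, region and exon, with a pseudocount of 1 before log2, and compared with limma 3.58.1 (lmFit, eBayes with trend, Benjamini-Hochberg over all features, threshold 0.05) in R 4.3.3. Log2 differences understate the change of low genes. Filters were a gene mean of at least 1 in at least 2 of the 4 inputs, and a region or exon mean input of at least 1, with exons of at least 2 windows. IP over input was centred on each library's median over windows whose winscore stayed under 1 in the first IP, taken in 5974 genes whose input there reached 5. Fits were tested on simulated data: fitted differences came back at the sizes put in, but the exon test made no calls at any simulated size, so its count of 0 says little. RPKM columns were set against tracks by Pearson correlation of log2(value + 0.5).

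The genes, the pathway and marker lists and the tests were chosen with earlier results of these data known. The rule for names took all 8 genes, their exons of at least 10 windows or with a region, up to 4 genes per role of the list by smallest p, listed genes with a region of winscore at least 4, the 3 genes nearest Axin2 and Mettl3. Shorter exons without a region that are named for an unadjusted p under 0.05 stand outside that rule. Marker lists were pluripotent stem cells, fibroblasts, primitive endoderm, neural cells and mesoderm. The first pair entered no test, since its genotype is not labelled. The sources used here give no strand handling and no rule for reads with several positions, so overlapping and antisense genes are uncertain. Alternatives covered the measure, pseudocount, filter, scaling, region threshold, replicate block and leaving out each replicate.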

Additional observations from a re-analysis of the deposited data

How the results depend on the processing

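The number of genes that passed for transcript level (2977) became 7965 with the RPKM table, 1232 with gene median coverage, 762 with no filter and 1930 with a minimum of 5, and 1743 to 3144 leaving out a replicate; of the 8 genes 1 passed, with 6 by RPKM, 0 by gene median or with no filter, and 0 to 1 leaving out a replicate. Replicate numbers did not pair the libraries (correlation of deviations -0.027 to 0.027): with the replicate block, 60 regions passed by winscore (13 higher, 47 lower in KO), 1 of them in these genes (Fzd3 windows 205 to 208, adjusted p 0.00473), and 2737 genes passed for transcript level. Leaving out a replicate gave 0 to 1221 regions by winscore (0 to 5 in these genes), 0 to 2275 by IP over input (0 to 3) and 0 to 432 exons (0 in these genes). The counts above 0 came without KO replicate 1 or KO replicate 2. The cause was not tested.

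The following differences, none past the test with all libraries, changed sign. Axin1 transcript level was 1.18 by RPKM, and Axin2 was -0.046 by gene median and -0.053 to 0.072 leaving out a replicate. By winscore, a region threshold of 1 gave -0.0010 (Fzd7 5 to 9), 0.17 (Fzd7 31 to 32), -0.10 (Lrp6 exon 18) and -0.68 (Axin2 windows 9 to 12 and 14 to 17, which merge into 1 region there, from -1.98 and 0.44), a threshold of 3 gave -0.088 (Fzd7 5 to 9), and the highest window gave 0.083 (Lrp6 exon 1) and 0.079 (Axin1 exon 2). By IP over input, centring on the tested regions gave 0.39 (Fzd7 5 to 9), 0.29 (Axin2 14 to 17), 0.26 (Gsk3b 11 to 16), 0.15 (Gsk3b 22 to 25), 0.27 (Axin1 exon 2), 0.26 (Apc 59 to 60) and 0.39 (Apc 120 to 133), the deposited scaling gave 0.035 (Fzd7 5 to 9) and 0.028 (Apc 120 to 133), and a pseudocount of 2 gave -0.0060 (Lrp6 exon 18). By exon, centring gave 0.074 (Apc 16), 0.051 (Axin1 2) and 0.15 (Lrp6 18), and the deposited scaling 0.045 (Lrp6 18).

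Leaving out a replicate, winscore differences ran from -0.12 to 0.36 (Fzd7 5 to 9), -0.59 to 0.54 (Lrp6 exon 22), -0.78 to 1.67 (Axin2 14 to 17), -0.96 to 0.60 (Axin2 exon 11), -0.16 to 1.32 (Gsk3b 11 to 16), -0.71 to 0.91 (Gsk3b 22 to 25), -0.74 to 0.51 (Gsk3b exon 11), -1.11 to 0.95 (Axin1 exon 2) and -0.058 to 2.24 (Axin1 exon 6). IP over input ran from -0.27 to 0.20 (Fzd7 5 to 9), -0.75 to 0.78 (Lrp6 exon 18), -1.01 to 0.74 (Axin2 14 to 17), -1.30 to 0.30 (Axin2 exon 11), -1.64 to 0.23 (Fzd3 exon 6), -0.80 to 0.46 (Gsk3b 11 to 16), -0.81 to 0.24 (Gsk3b 22 to 25), -0.60 to 0.95 (Gsk3b 28 to 29), -0.62 to 0.28 (Apc 59 to 60) and -0.21 to 0.12 (Apc 120 to 133). Whole exons ran from -0.997 to 0.024 (Axin1 11), -1.09 to 0.13 (Axin2 11), -0.37 to 0.49 (Fzd3 1), -1.54 to 0.13 (Fzd3 6) and -0.80 to 0.75 (Lrp6 18). By IP over input, regions of Ctnnb1, Fzd3 exon 1 and Lrp6 exons 1, 12 and 22 stayed lower in KO under every alternative run. So did Axin2 windows 9 to 12 and Fzd7 windows 31 to 32, 46 to 48 and 52 to 58. The alternative with a minimum input of 5 could not be run on those regions of Fzd3, Lrp6 and Axin2, whose input was lower. Axin1 exon 6 stayed higher in KO under every alternative run. With 1 library left in a group, that library is assumed to vary like the others. IP depth in WT and KO, 6.06% to 15.9% of the first IP, limits what can be seen in windows of low coverage.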
